A study of Homo sapiens with 6 samples.

Results

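The genes described here are 9 receptors of the tumor necrosis factor (TNF) receptor family and 1 ligand of the TNF family, TRAIL (TNFSF10). They were chosen by name, as the rows of the deposited count table with the symbols TNFRSF1A, TNFRSF1B, TNFRSF9, TNFRSF10A, TNFRSF10B, TNFRSF12A, TNFRSF21, FAS, TNFSF10 and CD40, and all 10 were found among the 21462 genes of the table. Their mRNA levels were compared between A431CT cells (genotype WT in the labels) and Dsg2KO cells (genotype DSG2 KO), with 3 libraries per condition. A431 is a human epidermoid carcinoma cell line with keratinocyte features, and DSG2, the gene edited with CRISPR/Cas9 in the Dsg2KO cells, encodes a desmosomal cadherin. Both were grown in the same serum-containing medium with no treatment named, and polyA RNA was sequenced. The sources used here do not say whether the Dsg2KO cells are 1 clone, so that a difference between the conditions cannot be told apart from a difference between these cell lines.

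Receptors of this family bind trimeric ligands at the cell surface. Those with a cytoplasmic death domain (TNFRSF1A, FAS, TNFRSF10A, TNFRSF10B and TNFRSF21) can assemble complexes through adaptors such as TRADD and FADD that lead either to caspase activation or to NF-κB. Those without one (TNFRSF1B, TNFRSF9, TNFRSF12A and CD40) bind TRAF adaptors directly and signal mainly to NF-κB and kinases. Keratinocytes are known to respond to TNF, Fas ligand and TRAIL in inflammation and in the removal of damaged cells.

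The libraries held between 12845719 and 16255692 counts, and 3 counts, taken as the floor of detection, corresponded to between 0.184 and 0.236 CPM (counts scaled to library size with edgeR's TMM factors). The edited gene DSG2 had a mean of 323 CPM (SD 6.08, n = 3) in A431CT and 51.9 CPM (SD 2.88, n = 3) in Dsg2KO libraries, all 3 of which were lower. The 8 keratinocyte markers summed to between 9600 and 10800 CPM, most of it EGFR, and KRT14 was at or under the floor in all. KRT6A (log2 fold change -1.03, adjusted p = 0.000562, edgeR) and KRT5 (-0.13, adjusted p = 0.0115) were lower in Dsg2KO cells, and CDH1 (0.28, adjusted p = 4.22e-05) and EGFR (0.11, adjusted p = 0.00579) higher. Fibroblast markers summed to at most 0.47 CPM, with 4 of 5 at or under the floor, and leukocyte markers to between 1.41 and 2.69 CPM, with 2 of 5 at or under the floor. The 4 endothelial markers summed to between 8.45 and 11.3 CPM in A431CT and between 15.1 and 15.7 CPM in Dsg2KO libraries, with KDR at or under the floor. The part of these differences in the results below was not tested.

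The changes of the members in Dsg2KO cells were mostly small and did not go in 1 direction. Of the 10 members, 9 had enough counts for edgeR's quasi-likelihood test, which ran over 12857 genes. TNFRSF9 fell to 55.3% of the A431CT level and was the 1 member past both thresholds (adjusted p below 0.05, log2 fold change beyond 0.5 in either direction), which 6.03% of all tested genes passed, 2.99% as higher and 3.03% as lower genes. By the adjusted p-value alone 5 members passed, against 29.6% of all tested genes. TRAIL, its receptors TNFRSF10A and TNFRSF10B, and the death domain receptor TNFRSF21 were the 4 higher ones (14.3% of all tested genes were higher), each by less than the fold minimum, and TNFRSF9 was the 1 lower (15.3% were lower). TNFRSF1A, FAS, TNFRSF12A and CD40 did not pass. The median log2 fold change of the 9 tested members was 0.10, against -0.005 for all tested genes. For 8 of the 9 members (6 higher and 2 lower) no library of one condition fell within the range of the other, which held for 42.6% of all tested genes. In a bulk sample fewer cells with an mRNA and less of it per cell cannot be told apart.

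**Figure D1:**
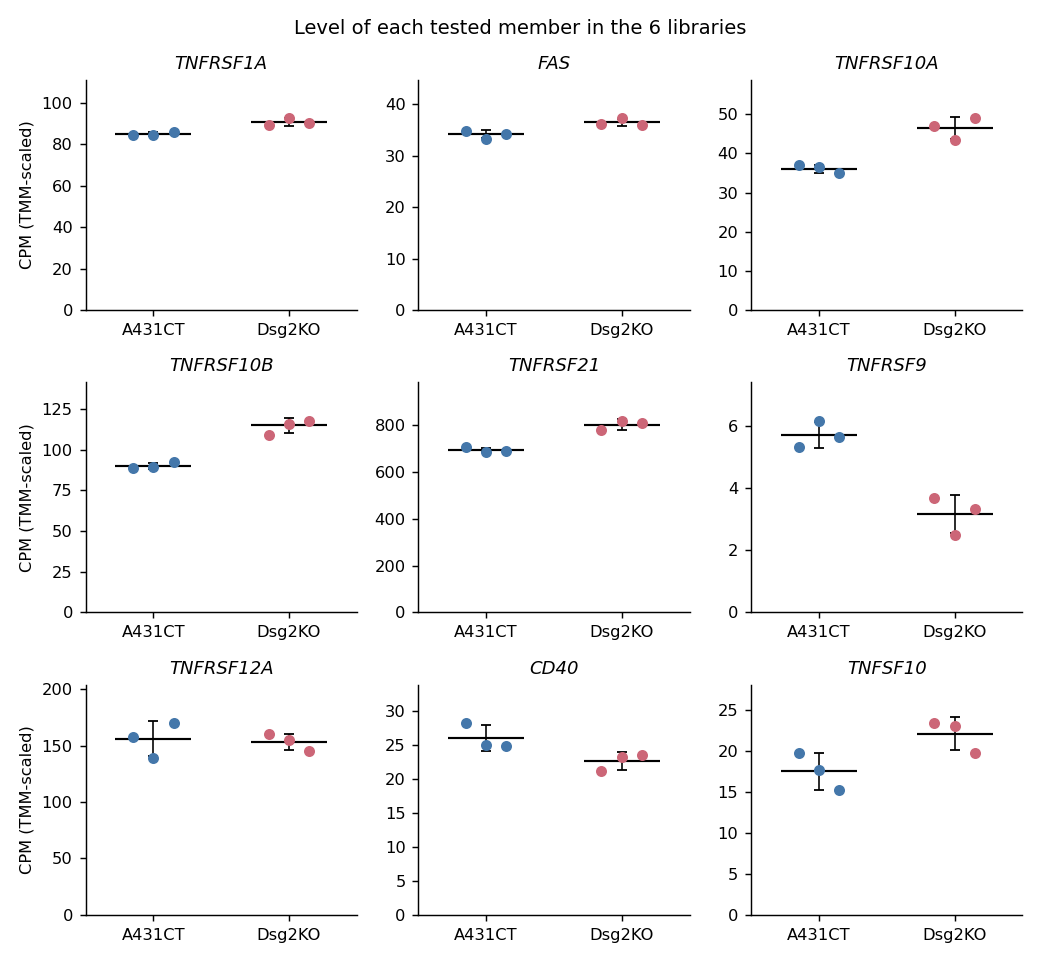
Level of each tested member in CPM (linear axis from 0) in the 3 A431CT and 3 Dsg2KO libraries; points are libraries, horizontal lines the means and error bars the SD. The Dsg2KO libraries lie below the A431CT libraries for TNFRSF9 and CD40, above them for the members other than these and TNFRSF12A, and among them for TNFRSF12A.

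The abundance of the members differed far more between genes than between conditions. Levels of different genes can be compared only per length, so CPM were divided by the kilobases of exon that GENCODE annotates for each gene. On this scale TNFRSF21 was the most abundant member, with 193 ± 2.74 CPM per kilobase in A431CT and 223 ± 6.06 in Dsg2KO cells (SD, n = 3). TNFRSF12A followed at 86.6 ± 8.68 and 85.2 ± 4.04 CPM per kilobase. TNFRSF1A, TNFRSF10B and TNFRSF10A came next, with 20.2 ± 0.224, 18.0 ± 0.374 and 12.3 ± 0.347 CPM per kilobase in A431CT cells. In Dsg2KO cells TNFRSF10B, at 22.9 ± 0.946 CPM per kilobase, was above TNFRSF1A, at 21.6 ± 0.416, within each library, although their ranges overlapped. With the longest transcript as length TNFRSF10B was at 28.7 and TNFRSF1A at 30.4 in these cells, so their order depends on the length used. TRAIL, at 5.10 ± 0.661, and CD40, at 4.62 ± 0.338 CPM per kilobase, overlapped in A431CT cells, whereas TRAIL was above CD40 in all 3 Dsg2KO libraries (6.41 ± 0.576 and 4.02 ± 0.235). With the longest transcript as length, TRAIL was at 9.35 and CD40 at 7.78 CPM per kilobase in A431CT cells. FAS was at 1.17 ± 0.0263 CPM per kilobase, but GENCODE joins 29313 bases of exon to this gene, and with its longest transcript of 16484 bases it was at 2.07. TNFRSF9 was at 0.902 ± 0.0673 CPM per kilobase, and TNFRSF1B, the other receptor for TNF, was above the floor of 3 counts in 1 library. TNFRSF1B, on chromosome 1 from 12166991 to 12209228 of GRCh38, had 0, 0 and 8 counts in A431CT libraries and 1, 0 and 3 in Dsg2KO libraries, so it was not tested and no fold is given.

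**Figure D2:**
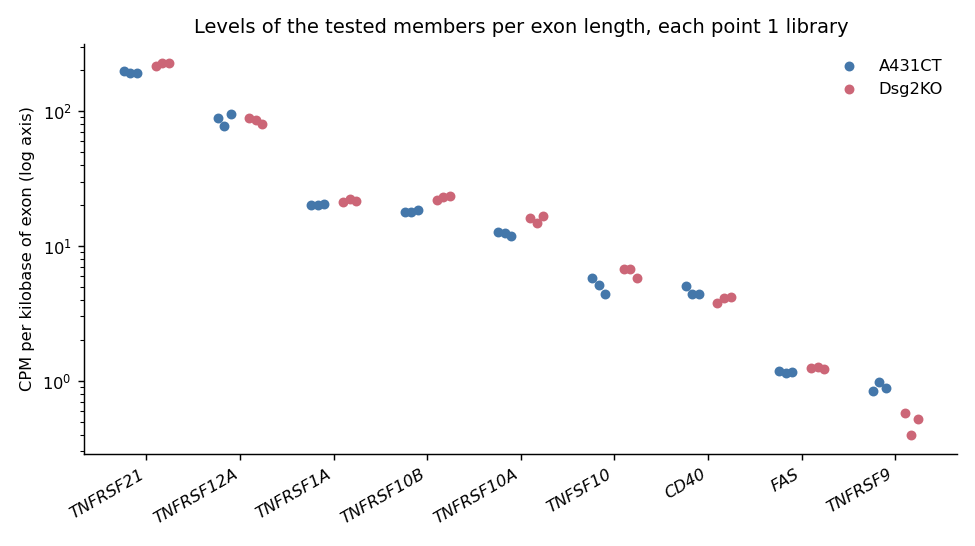
CPM per kilobase of annotated exon (log axis) of the 9 tested members, ordered by their A431CT mean; each point is 1 library, blue for A431CT and red for Dsg2KO. TNFRSF21 (193 in A431CT cells) and TNFRSF12A (86.6) lie above the other members, and TNFRSF9 (0.902) lies lowest.

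TRAIL and its death receptors were counted higher together in Dsg2KO cells. TRAIL binds TNFRSF10A and TNFRSF10B, which pass a death signal through FADD, and also the decoy receptors TNFRSF10C and TNFRSF10D, which lack a functional death domain. TNFRSF10B lies on chromosome 8 of GRCh38 from 23020133 to 23069031. Its levels were 88.7, 89.4 and 92.3 CPM in A431CT libraries and 109, 116 and 118 CPM in Dsg2KO libraries. Every Dsg2KO library was thus above every A431CT library, and the log2 fold change was 0.35 (standard error, SE, 0.05; 95% interval 0.25 to 0.45, adjusted p = 5.19e-05, edgeR). TNFRSF10B shares 377 bases of exon with RHOBTB2 on the opposite strand, whose log2 fold change was 0.40 (adjusted p = 5.35e-05, edgeR). Whether counting used the strand is not given in the sources used here, so reads from the shared bases cannot be assigned to one of the genes.

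TNFRSF10A also lies on chromosome 8, from 23190452 to 23225102. It was at 36.9, 36.5 and 35.0 CPM in A431CT libraries and at 47.1, 43.4 and 49.0 CPM in Dsg2KO libraries. The conditions did not overlap, and the log2 fold change of 0.36 (SE 0.07, 95% interval 0.23 to 0.50, adjusted p = 0.000653, edgeR) was close to that of TNFRSF10B. TNFRSF10A shares 224 bases of exon with TNFRSF10A-AS1 and 266 with TNFRSF10A-DT, both on the opposite strand and absent from the count table. Reads from these bases cannot be assigned with certainty either. Other genes of this region were also mostly higher. Of the 44 tested genes that start within 5 Mb of TNFRSF10A, 36 had a higher level in Dsg2KO cells and the median log2 fold change was 0.17. Above this median TNFRSF10A was higher by 0.19 and TNFRSF10B by 0.18 on the log2 scale. The neighbours of each include the other TRAIL receptors.

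The decoy receptors of the same gene cluster did not share 1 direction. TNFRSF10C, which is held in the membrane by a lipid anchor, was at 1.10, 0.295 and 0.233 CPM in A431CT libraries and at 2.15, 1.22 and 1.30 CPM in Dsg2KO libraries. These levels rest on 14, 4 and 3 counts against 32, 20 and 21, and the log2 fold change of 1.51 (SE 0.50, adjusted p = 0.0336, edgeR) had a 95% interval from 0.44 to 2.58. The gene passed the filter on low counts through its Dsg2KO libraries. Its call was lost in 4 of the 6 fits that left out 1 library, those without A431CT replicate 2 (adjusted p = 0.123, edgeR), A431CT replicate 3 (0.127), Dsg2KO replicate 1 (0.156) or Dsg2KO replicate 3 (0.0554), and with DESeq2 (adjusted p = 0.0715). Over all alternatives its adjusted p-value ranged from 0.00466 to 0.156. Without A431CT replicate 1 its log2 fold change was 2.51. TNFRSF10D, with a truncated death domain, was at 18.7, 19.4 and 19.7 CPM in A431CT libraries and 17.4, 17.7 and 15.3 CPM in Dsg2KO libraries. Its Dsg2KO libraries were lower without overlap, but its log2 fold change of -0.20 did not pass (95% interval -0.39 to 0.00, adjusted p = 0.121, edgeR).

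Per kilobase of exon, TNFRSF10B made up 49.8% (SD 1.15, n = 3) of the summed level of these 4 TRAIL receptors in A431CT cells and 51.4 ± 1.84% in Dsg2KO cells. TNFRSF10A made up 34.1 ± 0.902% and 35.7 ± 1.61%. The share of TNFRSF10D was 15.1 ± 0.449% in A431CT cells and 10.7 ± 1.05% in Dsg2KO cells, and that of TNFRSF10C was 0.970 ± 0.861% and 2.26 ± 0.761%. The death receptors thus held most of the receptor mRNA in both conditions. These shares were not tested.

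TRAIL itself lies on chromosome 3 of GRCh38 from 172505508 to 172523475. Its levels were 19.7, 17.7 and 15.2 CPM in A431CT libraries and 23.4, 23.1 and 19.8 CPM in Dsg2KO libraries. The lowest Dsg2KO library was only just above the highest A431CT library. The log2 fold change was 0.33 (SE 0.10, 95% interval 0.11 to 0.55, adjusted p = 0.0269, edgeR). The call was lost without A431CT replicate 3 (log2 fold change 0.24, adjusted p = 0.114, edgeR), without Dsg2KO replicate 1 (0.29, adjusted p = 0.0985) or without Dsg2KO replicate 2 (0.30, adjusted p = 0.0889), and with DESeq2 (0.33, adjusted p = 0.0694), while the direction stayed the same. Over all alternatives the adjusted p-value ranged from 0.00881 to 0.114. The 22 tested genes within 5 Mb of TRAIL had a median of 0.11, with 16 higher and 6 lower, and TRAIL differed from it by 0.22.

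TRAIL is known as an interferon-inducible gene, and its promoter is shown for this reason. The RefSeq window of 250 bases before to 50 bases after the start of the gene (GRCh38.p14, chr3:172523381-172523680, minus strand) is printed 5′ to 3′. The capitals mark a match to the core of the interferon-stimulated response element, searched as TTTCNNTTT on both strands.
TNFSF10: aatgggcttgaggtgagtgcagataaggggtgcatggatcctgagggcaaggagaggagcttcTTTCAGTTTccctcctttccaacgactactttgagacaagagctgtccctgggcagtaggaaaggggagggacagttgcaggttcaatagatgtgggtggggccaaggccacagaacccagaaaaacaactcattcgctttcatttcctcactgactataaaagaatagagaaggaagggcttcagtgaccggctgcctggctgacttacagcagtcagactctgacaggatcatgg
The match lies at positions -187 to -179 from the start. Of the 35116 RefSeq promoter windows of this length, 10.5% hold such a match. Among the 6 members whose windows were searched, TNFRSF1B, too low to be tested, was the other one with it. TNFRSF10A and TNFRSF10B were left out of this search. A match of letters does not show that a factor binds there.

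TNFRSF21, also known as death receptor 6, was the most abundant member and the third receptor with a higher level. It lies on chromosome 6 from 47231532 to 47309905. Its levels were 705, 686 and 691 CPM in A431CT libraries and 778, 820 and 810 CPM in Dsg2KO libraries. The conditions were clearly apart, with a log2 fold change of 0.21 (SE 0.03, 95% interval 0.14 to 0.28, adjusted p = 0.000196, edgeR). This is a small fold on an abundant mRNA, and the means differed by more than the SD of either condition. Among its 56 neighbours within 5 Mb, 23 were higher and 33 lower, with a median of -0.04. The RefSeq promoter window of TNFRSF21 (chr6:47309856-47310155, minus strand, GRCh38.p14) is printed for comparison with those of TRAIL and TNFRSF9, since it held no match to the interferon element above or to the κB and AP-1 motifs named below.
TNFRSF21: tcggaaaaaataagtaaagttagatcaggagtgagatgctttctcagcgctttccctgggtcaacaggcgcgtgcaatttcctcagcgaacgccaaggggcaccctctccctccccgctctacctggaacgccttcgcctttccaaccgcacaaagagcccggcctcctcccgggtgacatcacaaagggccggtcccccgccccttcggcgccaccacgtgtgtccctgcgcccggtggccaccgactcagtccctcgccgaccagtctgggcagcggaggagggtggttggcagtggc

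The other death domain receptors, TNFRSF1A and FAS, did not pass the test. TNFRSF1A is the main receptor for soluble TNF and lies on chromosome 12 from 6328757 to 6342114. It was at 84.6, 84.3 and 86.1 CPM in A431CT libraries and at 89.4, 92.7 and 90.1 CPM in Dsg2KO libraries. The libraries did not overlap, but the log2 fold change was only 0.09 (SE 0.04, 95% interval 0.00 to 0.19, adjusted p = 0.126, edgeR). FAS, the receptor for Fas ligand, lies on chromosome 10 from 88953813 to 89029605. It was at 34.8, 33.3 and 34.3 CPM in A431CT libraries and at 36.2, 37.3 and 36.0 CPM in Dsg2KO libraries. Its log2 fold change was 0.10 (SE 0.06, 95% interval -0.04 to 0.23, adjusted p = 0.283, edgeR). FAS libraries did not overlap either, and the upper ends of the intervals, 0.19 and 0.23 on the log2 scale, were below the fold minimum. GENCODE places exons of ACTA2 on the opposite strand and of STAMBPL1 on the same strand over FAS. Of the 29313 exon bases of FAS, ACTA2 shares 387 and STAMBPL1 166. ACTA2 had a mean of 0.512 CPM and STAMBPL1 of 13.3 CPM in A431CT cells. A noncoding RNA on the opposite strand, ENSG00000286116, shares 1899 bases and is not in the count table. Reads of the shared bases cannot be assigned with certainty.

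TNFRSF9 showed the largest change of the members. It encodes CD137, a costimulatory receptor best known on activated T cells, where its ligand is TNFSF9. It lies on chromosome 1 of GRCh38 from 7915871 to 7943165. The counts were 68, 84 and 73 in A431CT libraries and 55, 41 and 54 in the deeper Dsg2KO libraries. This gave 5.35, 6.19 and 5.66 CPM in A431CT cells and 3.69, 2.51 and 3.34 CPM in Dsg2KO cells. The lowest A431CT library was above the highest Dsg2KO library, and the means of 5.73 ± 0.428 and 3.18 ± 0.607 CPM (SD, n = 3) differed by more than the spread within either condition. The log2 fold change was -0.85 (SE 0.21, 95% interval -1.29 to -0.41, adjusted p = 0.00572, edgeR). With 1 library left out it lay between -0.97 and -0.71, with adjusted p-values from 0.0102 to 0.0311. The leukocyte marker PTPRC was at or under 0.59 CPM in every library, and CD3E, a T cell marker, had no count.

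The promoter window of TNFRSF9 (RefSeq, GRCh38.p14, chr1:7940790-7941089, minus strand) is printed because TNFRSF9 was the member past both thresholds. It is shown 5′ to 3′, and the capitals mark a match to a κB motif, searched as GGNNNTTCC, and a match to the AP-1 motif, searched as TGANTCA, on both strands. The RefSeq start lies within the span that GENCODE gives for this gene.
TNFRSF9: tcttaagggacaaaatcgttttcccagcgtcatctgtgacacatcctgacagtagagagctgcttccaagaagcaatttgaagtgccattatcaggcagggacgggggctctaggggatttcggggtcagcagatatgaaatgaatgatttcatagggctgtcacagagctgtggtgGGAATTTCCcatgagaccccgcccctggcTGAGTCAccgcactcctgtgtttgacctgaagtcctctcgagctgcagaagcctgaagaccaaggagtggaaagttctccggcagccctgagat
The κB match, which reads on either strand, lies at positions -73 to -65 and the AP-1 match at -44 to -38 from the start, and they do not overlap. Such matches are common, since 20.1% of all RefSeq promoter windows of this length hold the κB letters and 7.71% the AP-1 letters. FAS had a match to each in 1 of its windows, and the other members whose windows were searched had neither. TNFRSF10A and TNFRSF10B were left out of the search, so nothing is known here of their motifs. The motifs and their spelling were chosen after the levels were known, and a match is a description of these letters only.

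The genes around TNFRSF9 were lower in Dsg2KO cells as well. Of the 70 other tested genes that start within 5 Mb of it, 66 had a lower level in Dsg2KO cells, and their median was -0.35 on the log2 scale. TNFRSF9 differed from this median by -0.51 on the log2 scale. Among these neighbours, the death domain receptor TNFRSF25 had a log2 fold change of -0.39 (adjusted p = 0.0971, edgeR), close to the median around it. Whether the change of TNFRSF9 has a part in common with that of the region was not tested.

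**Figure D3:**
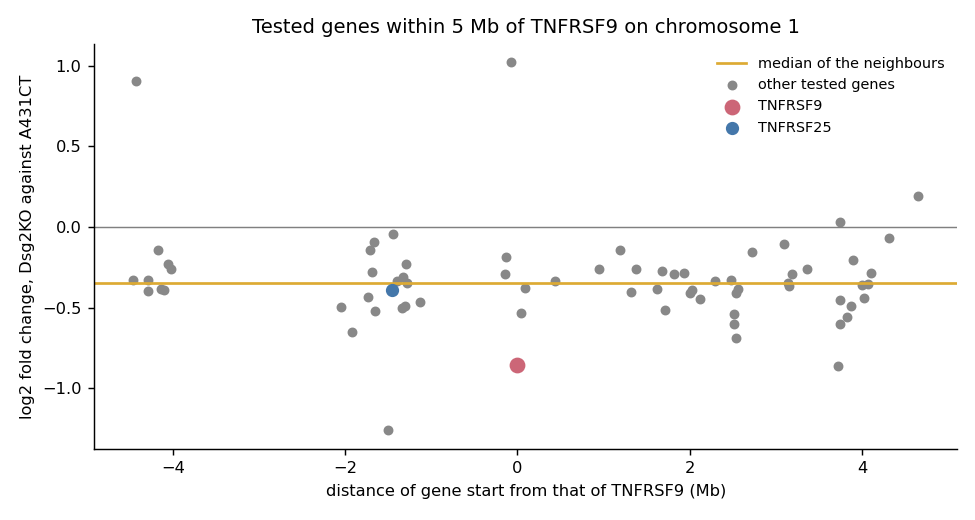
Log2 fold change (Dsg2KO against A431CT) of tested genes against the distance of their start from that of TNFRSF9 in Mb; grey points are other genes, blue TNFRSF25 and red TNFRSF9, and the yellow line is the median of the 70 neighbours (-0.35). Most neighbours lie below 0, and TNFRSF9 (-0.85) lies below their median.

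Over the 6 libraries, the tested genes whose profile was nearest to that of TNFRSF9 were TMEM234, DAB2 and MAP3K15. Nearness was the root mean square difference of log2 CPM after each gene was centred on its A431CT mean, and it was 0.104 for TMEM234, 0.111 for DAB2 and 0.111 for MAP3K15. TMEM234 was at 8.67 ± 1.02 CPM in A431CT and 5.06 ± 0.720 CPM in Dsg2KO cells (SD, n = 3). DAB2 was at 1.40 ± 0.267 and 0.785 ± 0.165 CPM, and MAP3K15 at 3.42 ± 0.256 and 2.01 ± 0.256 CPM. DAB2 did not pass the test (adjusted p = 0.0992, edgeR). All were picked for their likeness to TNFRSF9, so their lower levels are not a separate result.

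CD40, the receptor for CD40 ligand, lies on chromosome 20 from 46118271 to 46129863. Its levels were 28.2, 24.9 and 24.8 CPM in A431CT libraries and 21.1, 23.2 and 23.5 CPM in Dsg2KO libraries. The Dsg2KO libraries were lower without overlap, yet the log2 fold change of -0.20 did not pass (SE 0.08, 95% interval -0.37 to -0.02, adjusted p = 0.0819, edgeR). The 65 tested genes within 5 Mb were lower in 55 cases, with a median of -0.15, so that CD40 differed from its neighbours by -0.05. TNFRSF12A, the receptor for the ligand TWEAK and a gene known to be induced by growth factors, lies on chromosome 16 from 3018445 to 3022383. It was at 158, 139 and 170 CPM in A431CT libraries and at 160, 155 and 145 CPM in Dsg2KO libraries. The libraries overlapped, and the log2 fold change was -0.02 (SE 0.06, 95% interval -0.15 to 0.11, adjusted p = 0.811, edgeR). Its sign was not stable, at 0.04 without A431CT replicate 3 and 0.01 without Dsg2KO replicate 3.

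**Figure D4:**
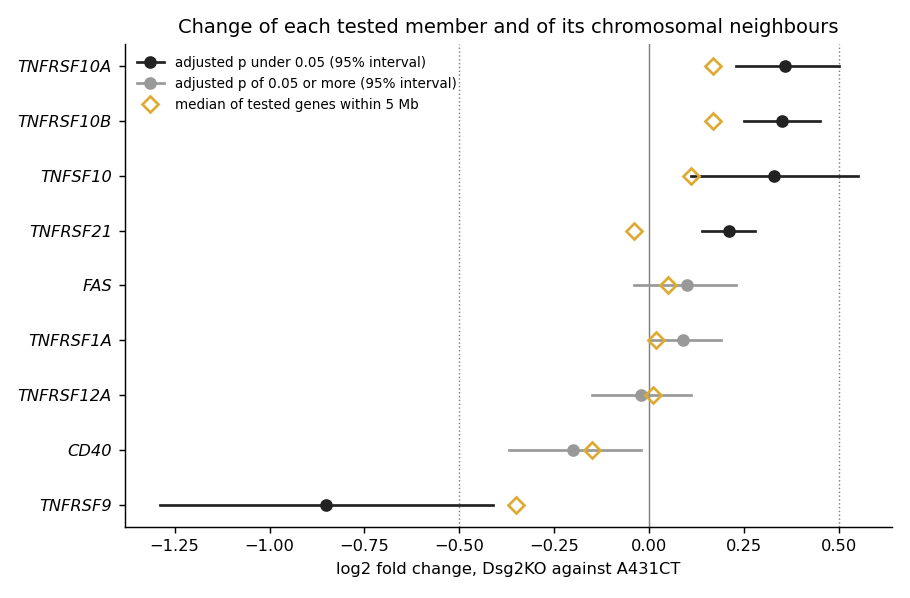
Log2 fold change of the 9 tested members (filled points, bars are 95% intervals, black where the adjusted p-value was under 0.05) and the median log2 fold change of the tested genes within 5 Mb of each (open yellow diamonds); dotted lines mark the fold minimum of 0.5 in either direction. TNFRSF9 (-0.85) lies beyond the minimum, and TNFRSF10A, TNFRSF10B, TNFSF10 and TNFRSF21 lie between 0.21 and 0.36.

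The rest of the pathway was described with lists of other receptors, ligands, adaptors, death complex genes and shedding enzymes, 86 genes in all, of which 65 could be tested. Past both thresholds were 5 of them, TNFRSF10C, NGFR and TNFSF15 as higher genes and TNFRSF14 and CASP9 as lower genes. This was 7.69% of those tested, against 6.03% of all tested genes. TNFRSF10C is counted here although it passed the filter through the condition in which it is higher, and DESeq2 called the other 4 only. By the adjusted p-value alone 14 passed, 21.5% against 29.6% of all tested genes. Among the 20 other receptors, 11 could be tested. Their median log2 fold change was -0.04, and 2 passed both thresholds as higher and 1 as lower. NGFR, the low-affinity neurotrophin receptor of this family, was at 10.4, 14.0 and 10.2 CPM in A431CT libraries and at 22.5, 20.1 and 17.5 CPM in Dsg2KO libraries. It was higher in 3 of 3 Dsg2KO libraries, with a log2 fold change of 0.79 (SE 0.13, adjusted p = 0.000359, edgeR).

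TNFRSF14, the receptor known as HVEM, was at 4.64, 4.72 and 3.33 CPM in A431CT libraries and at 1.95, 1.35 and 1.55 CPM in Dsg2KO libraries. No library overlapped, and the log2 fold change was -1.39 (SE 0.26, adjusted p = 0.000939, edgeR). It also lies on chromosome 1, from 2555639 to 2565382, and its 5 Mb neighbourhood overlaps that of TNFRSF9. Of its 74 tested neighbours 68 were lower and the median was -0.37, which left TNFRSF14 at -1.03 relative to them. LTBR and RELT had the highest CPM of the list, which is not scaled for length. LTBR, the lymphotoxin β receptor, fell by the adjusted p-value alone, from 262 ± 2.92 to 232 ± 2.67 CPM (SD, n = 3), a log2 fold change of -0.18 (adjusted p = 0.00183, edgeR). RELT was at 21.4 ± 0.444 and 22.0 ± 0.328 CPM, which overlapped.

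Of the 17 other ligands of the family, 11 were not tested and 8 were at or under 3 counts in every library, among them the ligands of TNFRSF1A, FAS, CD40 and TNFRSF12A. TNF had 1 count in A431CT replicate 2 and none in the other libraries, and Fas ligand (FASLG) had 1 count, in Dsg2KO replicate 3. CD40 ligand (CD40LG) had no count, and TNFSF12, which encodes TWEAK, is likewise listed without a count. The annotation used for counting is not given in the sources used here, so this is not taken as absence of the TNFSF12 mRNA. A count of 0 allows up to the floor of 0.184 to 0.236 CPM per library, which covers counting error only. TNFSF9, the ligand of the receptor encoded by TNFRSF9, was at 24.2 ± 2.85 CPM in A431CT and 25.9 ± 2.61 CPM in Dsg2KO cells (SD, n = 3), and its libraries overlapped. TNFSF13 was at 22.7 ± 1.23 and 22.1 ± 0.968 CPM, also with overlap.

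TNFSF15, the ligand of TNFRSF25, was the 1 ligand of the list past both thresholds. It was at 1.97, 2.21 and 3.57 CPM in A431CT libraries and at 5.97, 4.77 and 5.19 CPM in Dsg2KO libraries. The log2 fold change was 1.04 (SE 0.24, 95% interval 0.52 to 1.55, adjusted p = 0.00457, edgeR), higher in 3 of 3 Dsg2KO libraries. The median of the 39 tested genes within 5 Mb of it on chromosome 9 was 0.04.

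Among the 29 adaptors, kinases and ubiquitin enzymes that act next to the receptors, 28 were tested and 0 passed both thresholds with edgeR, as with DESeq2 (0), while 1 had an unadjusted p-value under 0.05 with a fold past the minimum. This was RNF31, a subunit of the linear ubiquitin ligase, at 13.1, 15.9 and 17 CPM in A431CT libraries and at 6.84, 15.4 and 7.17 CPM in Dsg2KO libraries. Dsg2KO replicate 2 lay within the A431CT range. The log2 fold change was -0.64 (adjusted p = 0.0505, edgeR). RNF31 passed both thresholds without Dsg2KO replicate 2 (-1.12, adjusted p = 0.000189, edgeR), with the replicate block (-0.69, adjusted p = 0.0124), with the likelihood ratio test (adjusted p = 0.0284), without the low-count filter (0.00272) and with at least 10 counts in every library (0.0348), while DESeq2 gave 0.284. The list had a median log2 fold change of -0.06. By edgeR's adjusted p-value alone 4 were lower, 14.3% of those tested against 15.3% of all tested genes, and 0 were higher, with 3 higher at an unadjusted p-value under 0.05. DESeq2 called 2 of the list, MAP3K7 and TNIP1, both lower, and 0 higher. The 4 were the adaptor TRAF2 (-0.18), the kinase MAP3K7 (-0.24), its partner TAB2 (-0.15) and TNIP1 (-0.24), a ubiquitin-binding inhibitor. The MAP3K7 call held in all 13 alternatives. TNIP1 overlapped between the conditions and was lost in 4 alternatives (adjusted p-values from 0.00063 to 0.0964 over all 13), TAB2 in 3 (0.0104 to 0.0935) and TRAF2 in 10 (0.0284 to 0.198). TAB2, at 118 ± 4.01 and 106 ± 3.38 CPM, and RBCK1, at 148 ± 4.88 and 145 ± 4.48 CPM (SD, n = 3), had the highest CPM of the list, again not scaled for length. RIPK3, a kinase needed for necroptosis, had at most 1 count in any library.

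Of the 14 genes of the death-inducing complex and its downstream arm, all were tested, and the median log2 fold change was 0.01. FADD, the adaptor of the death receptors, was at 498 ± 3.18 CPM in A431CT and 488 ± 6.42 CPM in Dsg2KO cells (SD, n = 3), with a log2 fold change of -0.03 (95% interval -0.10 to 0.04). By the adjusted p-value alone 1 gene of the list was higher with edgeR, where 14.3% of all tested genes were. This was CASP10, an initiator caspase of this complex, at a log2 fold change of 0.26 (adjusted p = 0.0314, edgeR). This call was lost with DESeq2 (adjusted p = 0.133) and without A431CT replicate 2 (0.0814, edgeR), A431CT replicate 3 (0.0982), Dsg2KO replicate 1 (0.0658) or Dsg2KO replicate 3 (0.101), in a range from 0.0202 to 0.133. CASP8 at 0.16 and its regulator CFLAR at 0.15 did not pass (adjusted p = 0.106 and 0.156, edgeR).

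Of the 14 tested genes of this list, 3 fell by the adjusted p-value, where 15.3% of all tested genes did. They were CASP9, APAF1 and DIABLO. CASP9, the initiator caspase of the apoptosome, was at 12.0, 10.4 and 10.8 CPM in A431CT libraries and at 6.71, 9.11 and 6.86 CPM in Dsg2KO libraries. Its log2 fold change was -0.54 (SE 0.15, adjusted p = 0.0119, edgeR). The call past both thresholds was lost in 3 of the 6 fits that left out 1 library, without A431CT replicate 1 (adjusted p = 0.0529, edgeR), without Dsg2KO replicate 1 (0.0561) and without Dsg2KO replicate 3, where the log2 fold change of -0.48 was under the minimum. Over the alternatives its adjusted p-value ranged from 0.00355 to 0.0561. CASP9 lies on chromosome 1 from 15490832 to 15526534, where 53 of its 64 tested neighbours within 5 Mb were lower, with a median of -0.29. TNFRSF9, TNFRSF14 and CASP9, the members and list genes lower past both thresholds, thus lie on 1 stretch of chromosome 1 with mostly lower neighbours. Whether their changes have a part in common with that of this stretch was not tested. APAF1, the scaffold of the apoptosome, was lower by the adjusted p-value alone, at -0.32 (adjusted p = 0.00574, edgeR), as was DIABLO, an inhibitor of IAP proteins, at -0.36 (adjusted p = 0.0138, edgeR). The DIABLO call was lost without A431CT replicate 1 (adjusted p = 0.0613, edgeR), A431CT replicate 2 (0.0595) or Dsg2KO replicate 1 (0.0712), in a range of adjusted p-values from 0.00216 to 0.0712. Cytochrome c (CYCS) was at 258 ± 5.90 and 259 ± 10.0 CPM (SD, n = 3), with a log2 fold change of 0.01, and BAX, BID and XIAP were at 0.01 as well. BAK1, which with BAX opens the outer mitochondrial membrane, was at 95.2, 99.4 and 95.5 CPM in A431CT and at 108, 105 and 101 CPM in Dsg2KO libraries, without overlap, but did not pass (log2 fold change 0.11, adjusted p = 0.0746, edgeR).

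Of the 6 genes that shed receptors and ligands of this family or regulate shedding, 0 passed both thresholds with edgeR, 0 with DESeq2, and 0 had an unadjusted p-value under 0.05 with a fold past the minimum. ADAM17, the protease that sheds TNF and its receptors, was lower by the adjusted p-value alone with edgeR, from 37.1 ± 3.49 to 32.2 ± 0.707 CPM (SD, n = 3). The adjusted p-value of 0.0495 (edgeR, log2 fold change -0.20) was just under the threshold and passed it in 4 of 13 alternatives (range 0.0219 to 0.216), and DESeq2 called 0 genes of this list. ADAM10, at 280 ± 8.70 and 301 ± 18.9 CPM, did not pass (adjusted p = 0.0963, edgeR). ERAP1 was at 207 ± 2.17 and 207 ± 7.46 CPM.

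**Figure D5:**
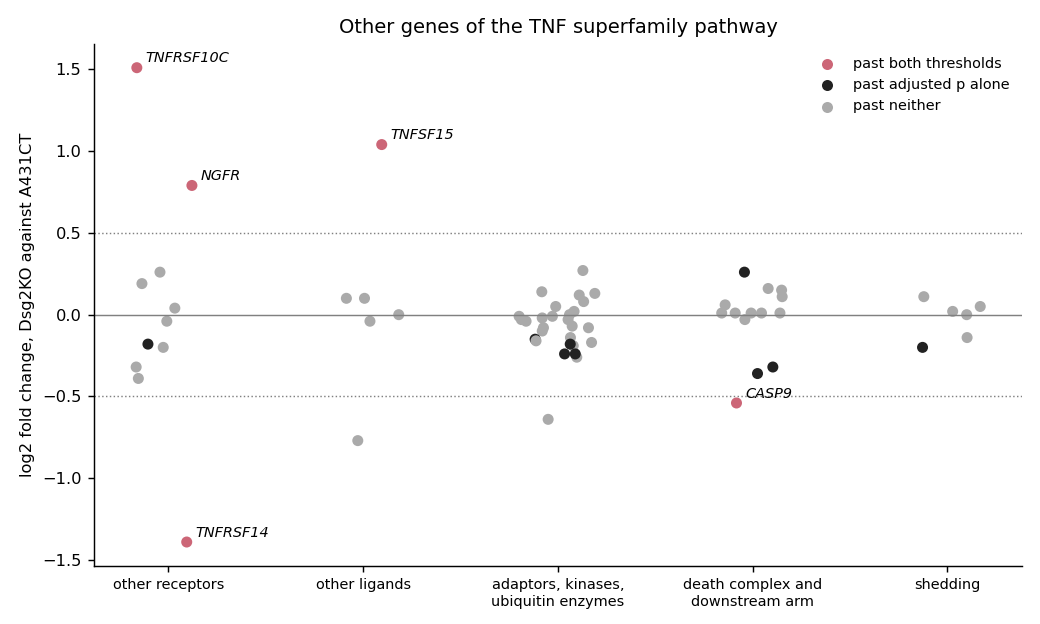
Log2 fold change (Dsg2KO against A431CT) of the 65 tested pathway genes in 5 lists; red points passed both thresholds, black points the adjusted p-value alone and grey points neither, with dotted lines at the fold minimum of 0.5. TNFRSF10C (1.51), TNFSF15 (1.04) and NGFR (0.79) lie above the minimum and TNFRSF14 (-1.39) and CASP9 (-0.54) below it.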

How the data were processed

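The authors removed adapters and low-quality reads and mapped the paired-end libraries to GRCh38 in CLC Genomics Workbench (version 23), and used TPM and the program's own tests, which were not used here. The deposited table holds raw counts per gene symbol for 3 A431CT and 3 Dsg2KO libraries, and the gene annotation and strand setting are not given in the sources used here. Counts were analysed with edgeR 4.0.16 in R 4.3.3, using TMM factors, filterByExpr (minimum count 10, minimum total count 15), the quasi-likelihood F test without covariates and Benjamini-Hochberg adjustment over 12857 genes. Standard errors are the log2 fold change divided by the square root of F, and 95% intervals use the t distribution with the degrees of freedom of the fit. The thresholds, 0.05 for the adjusted p and 0.5 for the size of the log2 fold change, follow the study. Libraries of 1 condition differed beyond counting error (chi-square per degree of freedom from 2.66 to 4.20), and none were merged.

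Positions, exon lengths and overlaps are from GENCODE version 44, which placed 19470 of the 21462 genes and 12240 of those tested. Neighbours are tested genes starting within 5 Mb. Promoter windows are from RefSeq, and those of 6 members were searched, with no window at hand for CD40 or TNFRSF12A. The chromosome of TNFRSF10A and TNFRSF10B was left out of the search of members, but not of the shares over all windows. The members and lists were chosen with earlier results of these data known. The genes named are the members, DSG2, list genes past both thresholds, the 2 per list with the highest CPM, and the 3 nearest in profile to the most changed member. The other pathway genes, the markers and the overlapping genes were named after their values were seen. The alternatives were other filters, size factors and tests (DESeq2 1.42.0, edgeR's likelihood ratio test), a replicate block, other fold minimums and each library left out. Intervals and floors cover counting error or the spread between these libraries only.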

Additional observations from a re-analysis of the deposited data

How the results depend on the processing

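TNFRSF9 remained the 1 member past both thresholds under each filter, size factor, test and left-out library tried (1 member with any 1 library left out). By the adjusted p-value alone the number was 4 or 5 in these settings, which were added for this count after the data were examined, and TRAIL was the member that dropped out. Without a fold minimum 5 members passed, while none (0) with edgeR reached a log2 fold change of 1 (0 also with DESeq2 and at an unadjusted p-value under 0.05). Of the pathway list genes 14 passed without a fold minimum, 3 with a minimum of 1, and from 3 to 6 with 1 library left out, 3 without Dsg2KO replicate 1 or without Dsg2KO replicate 3. RNF31 was gained without Dsg2KO replicate 2 and TNFRSF25 without A431CT replicate 2. CASP9 and TNFRSF10C both dropped out without Dsg2KO replicate 1 or without Dsg2KO replicate 3. Why these genes moved was not tested. The alternatives for list genes past the adjusted p-value alone and for RNF31 were added after the data were examined. For DSG2 the log2 fold change stayed between -2.68 and -2.61. TNFRSF12A ranged from -0.10 to 0.04 with 1 library left out and was at 0.04 without A431CT replicate 3 and at 0.01 without Dsg2KO replicate 3. The replicate numbers did not pair the libraries (residual correlations between -0.0027 and 0.0539), and a replicate block gave 1 member and 6 list genes past both thresholds. Per kilobase of the longest transcript in place of all exons, A431CT levels were 28.4 for TNFRSF1A, 2.07 for FAS, 13.4 for TNFRSF10A, 22.5 for TNFRSF10B, 0.976 for TNFRSF9, 7.78 for CD40 and 9.35 for TRAIL (TNFSF10), because the lengths are shorter. Depth limits TNFRSF1B, TNFRSF10C and the ligands near the floor.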
